A study of Rattus norvegicus with 16 samples.

Results

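Transcripts of 6 liver-made plasma proteins were followed in cultured rat hepatocytes: Rbp4, Ttr, Alb, Gc, Serpina1 and Ahsg. Their probes were found in the scanner files through RefSeq accessions matched to rat gene symbols; no measured value enters that rule, but the genes were chosen with earlier results of these data known. Each of the 6 genes had 1 probe and 1 spot per array, among 30367 probes and 20395 genes tested in all, and each spot was well above background in all 32 channel measurements of the 16 arrays. The tested cells were primary hepatocytes of male Sprague Dawley rats kept in Williams Medium E and exposed to SQ1 at 100 µM, or to pravastatin at 30 µM, over a period of 48 hours that began 48 hours after plating. Their reference was untreated cells of the same kind, and every array set 1 treated against 1 untreated RNA. For each drug, 8 arrays were hybridised, 4 with the treated RNA in the A555 dye and 4 with it in A647. SQ1 is a code name in the labels; in work on hepatocytes it stands for squalestatin 1, which blocks squalene synthase, while pravastatin blocks the same sterol pathway upstream of it. The doses differed, so a comparison of the drugs is one of these treatments and not of their potency. GEO's design text calls the arrays biological replicates, but no label says which cultures came from separate rats, so p-values measure the spread between these samples, which may be in part technical.

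Hepatocytes make most of the carrier proteins of blood plasma and release them through the secretory pathway. Alb encodes albumin, which binds fatty acids, bilirubin and many drugs and holds water in the circulation. Rbp4 encodes the retinol-binding protein that takes vitamin A from the liver to other tissues, and it travels bound to transthyretin, the product of Ttr, which also carries thyroxine. Gc encodes the vitamin D-binding protein, a relative of albumin that also takes up actin. Serpina1 encodes alpha-1-antitrypsin, the inhibitor of neutrophil elastase, and Ahsg encodes fetuin-A, which keeps calcium phosphate from precipitating and also binds the insulin receptor. In hepatocytes these genes are driven by liver-enriched factors such as the HNF1, HNF4, C/EBP and FOXA families, and their transcripts are known to decline as hepatocytes lose their differentiated state in culture.

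The promoters of 4 of these genes are shown because binding motifs of those factors were searched in them and because the genes are compared throughout. The sequences are from RefSeq on the rat assembly GRCr8, each from 250 bases before the start of the gene to 50 after it and written 5′ to 3′ on the strand of the gene. They lie at chr1:245313502-245313801 (minus strand) for Rbp4, chr14:17906930-17907229 (minus strand) for Alb, chr14:18916005-18916304 (plus strand) for Gc and chr11:91632534-91632833 (minus strand) for Ahsg. RefSeq held a promoter for all 6 genes. Capitals mark a match to a searched motif on either strand.
Rbp4: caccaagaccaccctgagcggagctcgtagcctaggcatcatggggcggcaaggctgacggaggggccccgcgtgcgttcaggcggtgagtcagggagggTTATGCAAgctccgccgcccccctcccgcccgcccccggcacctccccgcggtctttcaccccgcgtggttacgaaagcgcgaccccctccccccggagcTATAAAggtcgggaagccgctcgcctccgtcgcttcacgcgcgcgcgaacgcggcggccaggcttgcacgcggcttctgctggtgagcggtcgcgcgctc
Alb: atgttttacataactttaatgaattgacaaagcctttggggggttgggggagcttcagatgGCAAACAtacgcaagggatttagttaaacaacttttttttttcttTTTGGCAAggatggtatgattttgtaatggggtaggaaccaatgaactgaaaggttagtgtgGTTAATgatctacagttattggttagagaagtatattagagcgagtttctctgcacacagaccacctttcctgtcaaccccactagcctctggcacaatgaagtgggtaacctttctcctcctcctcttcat
Gc: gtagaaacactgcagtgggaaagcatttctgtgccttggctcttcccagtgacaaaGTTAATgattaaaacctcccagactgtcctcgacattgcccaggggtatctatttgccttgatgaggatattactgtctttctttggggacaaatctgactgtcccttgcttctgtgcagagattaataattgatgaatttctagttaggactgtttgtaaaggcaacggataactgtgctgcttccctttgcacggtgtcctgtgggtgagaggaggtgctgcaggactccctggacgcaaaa
Ahsg: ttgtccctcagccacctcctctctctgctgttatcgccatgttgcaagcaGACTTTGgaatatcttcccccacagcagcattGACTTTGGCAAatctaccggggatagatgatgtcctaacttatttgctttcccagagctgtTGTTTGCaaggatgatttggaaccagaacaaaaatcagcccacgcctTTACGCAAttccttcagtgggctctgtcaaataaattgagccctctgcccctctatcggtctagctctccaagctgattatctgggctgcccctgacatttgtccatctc
The 6 motifs searched were GTTAAT (an HNF1 half-site), TTGCNNAA (C/EBP), TGTTTNC (FOXA), CAAAGTC (an HNF4 half-site), TATAAA (the TATA box) and TCACNCCAC (a sterol regulatory element), each on both strands. The HNF1 letters began 82 bases before the start of Alb and 194 bases before that of Gc, and they occur in 7.45% of 33469 rat promoters of this length. The C/EBP letters were found in Alb, Rbp4 and Ahsg, and in 10.6% of promoters. In Ahsg, 1 of the 2 C/EBP matches overlapped a match to the HNF4 letters, so that both are within a single run of capitals. The FOXA letters were in Alb, Ttr and Ahsg, and in 21.1% of promoters. The HNF4 letters were found in Ahsg (4.61% of promoters) and the TATA box in Rbp4 (14.2% of promoters), and the sterol regulatory letters in none of the 6 genes (1.12% of promoters). A match to such short letters is a description of the sequence and not a bound site.

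Log ratios were taken after removal of local background and loess normalisation within each array, and each gene was fitted with a term for either drug and a dye term in limma. Calls were made where the p adjusted by Benjamini-Hochberg across the 20395 genes was under 0.05. The 16 arrays had median spot signals of 588 to 663 in the A555 channel and 790 to 1076 in the A647 channel, and none of their spots was saturated. The labels and the scanner file names agreed on the drug of every array. The deposited table of processed ratios did not: its columns matched the other drug's arrays of equal number (Pearson 0.999 to 1 over probes), against 0.45 to 0.562 for the arrays of their own labels. The drug of each array was taken from its label and scanner file here, and which assignment is right was not settled by the files. Under that of the deposited table, SQ1 and pravastatin would change places in every value given here, so that the rise of Ttr would be that under SQ1 and each sign of SQ1 minus pravastatin would turn. All 15 hepatocyte markers measured besides the 6 transcripts were well above background in every channel. The same held for all 15 macrophage markers, all 10 of stellate cells and fibroblasts, all 4 endothelial markers and 5 of 6 cholangiocyte markers measured.

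In cells given SQ1, all 6 transcripts fell, and Rbp4 fell the most, to 42.1% of its level in untreated cells. Ahsg, Gc and Serpina1 fell to between 53.6% and 58.6%, Alb to 68.2% and Ttr to 84.9%. Of all genes tested in this comparison 64.0% were called, 32.8% as higher and 31.2% as lower, so calls were common. Among the 400 genes at least as bright as the dimmest of the 6, 33.5% were called lower and 42.8% higher. The median change of the 6 transcripts was -0.79 on the log2 scale, against 0.05 for those 400 genes. The sizes depended on the normalisation for all 6. Centring each array on its median in place of loess gave -0.99 for Rbp4, -0.69 for Ahsg and -0.55 for Gc. It gave -0.54 for Serpina1, -0.31 for Alb and 0.01 for Ttr, of which that of Ttr was not called. Loess gave -1.25, -0.90, -0.80, -0.77, -0.55 and -0.24 in the same order of genes. In cells given pravastatin, 5 of the 6 fell and Ttr rose to 114% of its untreated level. Of all genes tested 41.4% were called there, 20.7% as lower and 20.7% as higher, and among the 400 bright genes 28% were called lower and 35% higher.

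**Figure D1:**
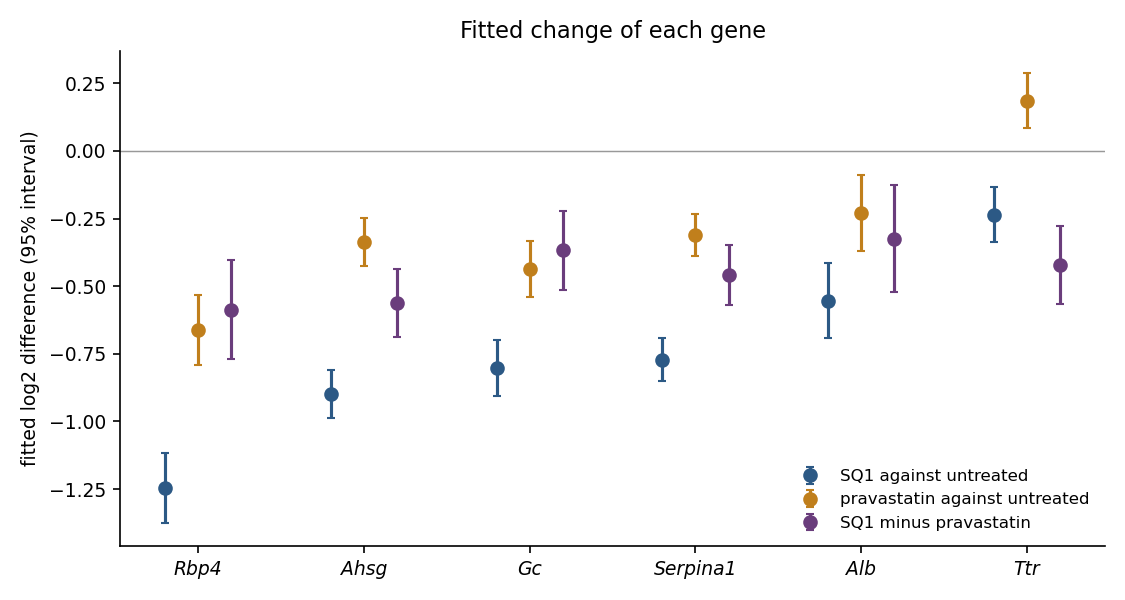
Fitted log2 difference of each gene (points) with its 95% confidence interval (bars), from limma over 16 arrays, for SQ1 against untreated cells, pravastatin against untreated cells and SQ1 minus pravastatin. All SQ1 values lie below 0, from -1.25 for Rbp4 to -0.24 for Ttr, and Ttr under pravastatin, at 0.19, is the only value above 0.

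Rbp4 carried the largest change of the 6 under either drug. On the SQ1 arrays the log2 ratio of treated over untreated cells was -1.85 at its lowest, -1.22 at the median and -0.58 at its highest. On the pravastatin arrays it was -1.30 at its lowest, -0.58 at the median and -0.08 at its highest. The ratio was thus below 0 on every array of both drugs, while the ranges of the drugs overlapped. The fitted change was -1.25 ± 0.06 for SQ1 (SE, adjusted p = 4e-12 by limma) and -0.66 ± 0.06 for pravastatin (SE, adjusted p = 1.03e-07 by limma). Counted from the most negative change, Rbp4 stood at place 158 of 20395 genes under SQ1 and at place 164 under pravastatin.

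Ttr, whose protein forms the plasma complex with that of Rbp4, had a smaller change under SQ1 and the opposite one under pravastatin. Its log2 ratio ran from -1.04 to 0.55 on the SQ1 arrays with a median of -0.21, and from -0.59 to 0.92 on the pravastatin arrays with a median of 0.29. The arrays split by dye. With the treated RNA in A555 the ratio was -1.04 to -0.62 for SQ1 and -0.59 to -0.19 for pravastatin, and with it in A647 it was 0.19 to 0.55 for SQ1 and 0.76 to 0.92 for pravastatin. Each drug therefore had 4 arrays on either side of 0, and the fitted change is the mean of the orientations. That change was -0.24 ± 0.05 for SQ1 (SE, adjusted p = 0.000329 by limma) and 0.19 ± 0.05 for pravastatin (SE, adjusted p = 0.00482 by limma). The SQ1 call ended when arrays were centred on their median in place of loess, where the value was 0.01 (adjusted p = 0.869 by limma), and without any normalisation, where it was -0.04 (adjusted p = 0.663 by limma). On each array the Rbp4 ratio was lower than the Ttr ratio. The difference, Rbp4 minus Ttr on the log2 scale, had a median of -0.98 over the SQ1 arrays, from -1.40 to -0.66, and of -0.86 over the pravastatin arrays, from -1.07 to -0.62. It was below 0 on 16 of 16 arrays, in both dye orientations. How many other pairs of genes keep 1 sign on all arrays was not counted.

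Alb, the most familiar product of hepatocytes, changed less than most of the others. Its log2 ratio ran from -1.23 to 0.13 on the SQ1 arrays with a median of -0.54, and from -0.82 to 0.28 on the pravastatin arrays with a median of -0.20. It was below 0 on 6 of 8 SQ1 arrays and on 4 of 8 pravastatin arrays, which were those with treated RNA in A555. The fitted change was -0.55 ± 0.07 for SQ1 (SE, adjusted p = 7.96e-07 by limma) and -0.23 ± 0.07 for pravastatin (SE, adjusted p = 0.01 by limma). With median centring the SQ1 value was -0.31 (adjusted p = 1.58e-06 by limma). On pravastatin arrays 5 and 6 the Alb spot was dim in both channels: it reached 38.3% and 39.2% of the scanner's limit in the treated channel, against 56.9% to 66% on the other 6 arrays of that orientation, and 12.3% and 14.6% in the untreated channel, against 19.1% to 24.4%. Without those arrays the pravastatin change was -0.25 (adjusted p = 0.025 by limma).

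Gc had more negative fitted changes than its relative Alb, a difference that was not tested. Its log2 ratio ran from -1.40 to -0.08 on the SQ1 arrays with a median of -0.85, below 0 on 8 of 8, and from -1.11 to 0.24 on the pravastatin arrays with a median of -0.41, below 0 on 4 of 8. The fitted change was -0.80 ± 0.05 for SQ1 (SE, adjusted p = 9.44e-11 by limma) and -0.44 ± 0.05 for pravastatin (SE, adjusted p = 1.31e-06 by limma). Alb and Gc lie in the albumin gene cluster of chromosome 14 with Afp, next to Alb, and Afm, beyond Afp, and Gc is 5 protein-coding genes from Alb on its other side in GRCr8. The fetal albumin Afp had a fitted SQ1 change of -0.07 ± 0.04 (SE, adjusted p = 0.129 by limma), which was not called, and rose by 0.20 ± 0.04 under pravastatin (SE, adjusted p = 0.000291 by limma). Afm, which encodes afamin, a vitamin E-binding protein, fell by 0.19 ± 0.05 under SQ1 (SE, adjusted p = 0.00362 by limma) and by 0.34 ± 0.05 under pravastatin (SE, adjusted p = 4.79e-05 by limma). Alb, Gc, Afp and Afm thus had fitted SQ1 changes between -0.80 and -0.07 and pravastatin changes between -0.44 and 0.20. Afp and Afm were named for their place beside Alb after their values had been seen.

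Serpina1 and Ahsg were the transcripts least divided by dye, though the orientations of Serpina1 did not overlap under either drug. For Serpina1, the log2 ratio ran from -1.12 to -0.41 on the SQ1 arrays with a median of -0.80, below 0 on 8 of 8, and from -0.75 to 0.05 on the pravastatin arrays with a median of -0.33, below 0 on 6 of 8. Its fitted change was -0.77 ± 0.04 for SQ1 (SE, adjusted p = 3.18e-12 by limma) and -0.31 ± 0.04 for pravastatin (SE, adjusted p = 2.5e-06 by limma). For Ahsg, the ratio ran from -1.09 to -0.67 on the SQ1 arrays with a median of -0.93, and from -0.49 to -0.16 on the pravastatin arrays with a median of -0.35. All SQ1 arrays of Ahsg lay below all its pravastatin arrays, and all 16 lay below 0. The share of all genes with either pattern was not counted. Compared within each dye orientation, SQ1 lay wholly below pravastatin in both orientations for 8.56% of all genes. The fitted change of Ahsg was -0.90 ± 0.04 for SQ1 (SE, adjusted p = 1.87e-12 by limma) and -0.34 ± 0.04 for pravastatin (SE, adjusted p = 3.94e-06 by limma). Of the 6 transcripts, 4 (Rbp4, Gc, Serpina1 and Ahsg) were below 0 on all 8 SQ1 arrays, against 20.7% of all genes, and 2 (Rbp4 and Ahsg) on all 8 pravastatin arrays, against 11.8% of all genes.

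**Figure D2:**
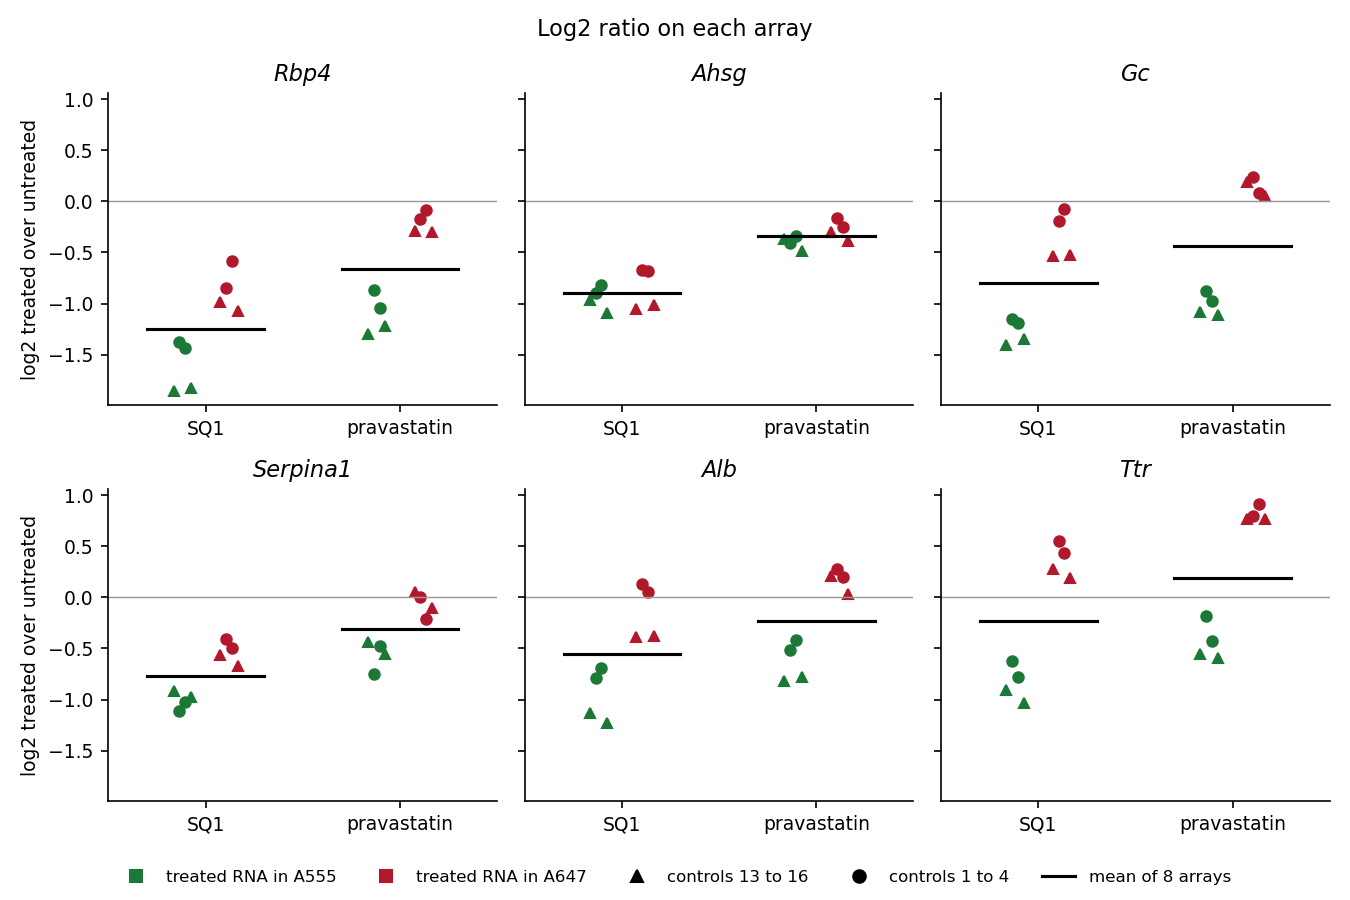
Log2 ratio of treated over untreated cells on each of 16 arrays, with SQ1 left and pravastatin right in each panel, coloured by the dye of the treated RNA and shaped by the control number in the scanner file name; bars are means of 8 arrays. The colours separate within each drug for Ttr, Gc, Alb, Rbp4 and Serpina1, with A647 above A555, and mix for Ahsg. The SQ1 values of Ahsg (-1.09 to -0.67) lie below its pravastatin values (-0.49 to -0.16), a pattern whose share among all genes was not counted.

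The dye split was measured by the dye term of the fit, the log2 excess of A647 over A555 that is common to both drugs. It was 0.61 ± 0.03 for Ttr, 0.52 ± 0.04 for Gc, 0.41 ± 0.04 for Rbp4, 0.41 ± 0.05 for Alb and 0.24 ± 0.03 for Serpina1 (SE), each called by limma with adjusted p of 6.22e-06 or less, and 0.05 ± 0.03 for Ahsg (SE, adjusted p = 0.213 by limma). Genes with a called dye term above 0 were 12.1% of all genes tested, those with one below 0 were 10.3% and those called either way 22.4%, and the median size of the term was 0.04. These spots were bright. In the A647 channel Ttr stood at 65.2% to 89.2% of the scanner's limit, Gc at 52% to 78.3%, Rbp4 at 38.4% to 84.2%, Alb at 38.3% to 78.3%, Serpina1 at 31% to 56.2% and Ahsg at 17.4% to 36.3%. In the A555 channel the 6 spots stood at 6.76% to 31.1%. The part of brightness in the dye term was not tested. Each drug had equal numbers of arrays in both orientations, so that the dye term cancels in the fitted changes.

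With the drugs as labelled, the contrast of the fitted changes placed all 6 transcripts lower with SQ1 than with pravastatin, each against untreated cells. No array set SQ1 RNA against pravastatin RNA, so differences between the untreated readings of their arrays enter this contrast. Of all genes tested 38.3% were called in this contrast, 18.7% as higher and 19.7% as lower, and of the 400 bright genes 24% were called lower and 13.5% higher. SQ1 minus pravastatin was -0.59 ± 0.09 for Rbp4 (SE, adjusted p = 2.81e-05 by limma) and -0.56 ± 0.06 for Ahsg (SE, adjusted p = 5.69e-07 by limma). The other 4 differences were -0.46 ± 0.05 for Serpina1, -0.42 ± 0.07 for Ttr, -0.37 ± 0.07 for Gc and -0.32 ± 0.09 for Alb (SE), with adjusted p of 1.54e-06, 8.12e-05, 0.000378 and 0.0105 by limma. Same-numbered arrays of both drugs carry the same control number in their file names and the same dye orientation. Going by these numbers, the comparisons with untreated cells share their controls. The SQ1 ratio was the lower of the pair in 8 of 8 pairs for each of the 6 transcripts, which held for 18.3% of all genes. Within a dye orientation, the SQ1 arrays lay wholly below the pravastatin arrays in both orientations for 5 of the 6, all but Alb, against 8.56% of all genes. Each slide carried arrays of a single drug, and drug and slide cannot be told apart here. The Alb call ended with median centring (-0.13, adjusted p = 0.111 by limma), with arrays scaled to 1 spread (-0.22, adjusted p = 0.064 by limma) and without normalisation (-0.16, adjusted p = 0.393 by limma). The Gc call ended with scaled arrays (-0.20, adjusted p = 0.0649 by limma) and without normalisation (-0.22, adjusted p = 0.183 by limma), and that of Ttr without normalisation (-0.26, adjusted p = 0.0939 by limma).

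Signal levels in each condition, on a log2 scale after normalisation of both channels, gave the same order of means for 5 of the genes, with SQ1 lowest, pravastatin next and untreated cells highest. Levels of different probes are not set against each other. Rbp4 averaged 16.99 ± 0.42 with SQ1, 17.30 ± 0.36 with pravastatin and 18.10 ± 0.12 in untreated cells (SD, n = 8 each, a control measured on 2 arrays averaged first). Its treated levels with either drug all lay below the lowest averaged untreated level of 17.90, while those of the drugs overlapped each other. Single untreated readings went down to 17.66, just below the highest pravastatin level of 17.72. Ahsg averaged 16.07 ± 0.22 with SQ1, 16.54 ± 0.16 with pravastatin and 16.92 ± 0.08 in untreated cells (SD, n = 8 each), with neighbouring conditions overlapping and SQ1 wholly below untreated. Serpina1 averaged 16.77 ± 0.29 with SQ1, 17.08 ± 0.20 with pravastatin and 17.47 ± 0.13 in untreated cells (SD, n = 8 each), in the same pattern for averaged controls. Its single untreated readings went down to 17.19, just below the highest SQ1 level of 17.21. For the remaining genes the conditions were less apart. Gc averaged 17.26 ± 0.39 with SQ1, 17.45 ± 0.40 with pravastatin and 17.97 ± 0.18 in untreated cells (SD, n = 8 each), and Alb 17.45 ± 0.31 with SQ1, 17.56 ± 0.23 with pravastatin and 17.90 ± 0.32 in untreated cells (SD, n = 8 each). Their ranges overlapped in all 3 conditions. Ttr averaged 17.79 ± 0.33 with SQ1, 18.06 ± 0.23 with pravastatin and 17.95 ± 0.39 in untreated cells (SD, n = 8 each), so its order was SQ1, untreated and pravastatin, with overlap throughout. The untreated level of a control number tended to be higher on its SQ1 array than on its pravastatin array. This held in 8 of 8 controls for Rbp4, by a median of 0.24, and in 8 of 8 for Serpina1, by 0.15. For the other 4 genes it held in 6 or 7 of 8, by medians of 0.09 to 0.12. The largest differences for Alb were 0.51 on control 1 and 0.68 on control 2. SQ1 minus pravastatin includes such untreated differences along with those of the treated levels. For Alb that contrast was -0.32, while its mean treated levels were 17.45 with SQ1 and 17.56 with pravastatin.

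**Figure D3:**
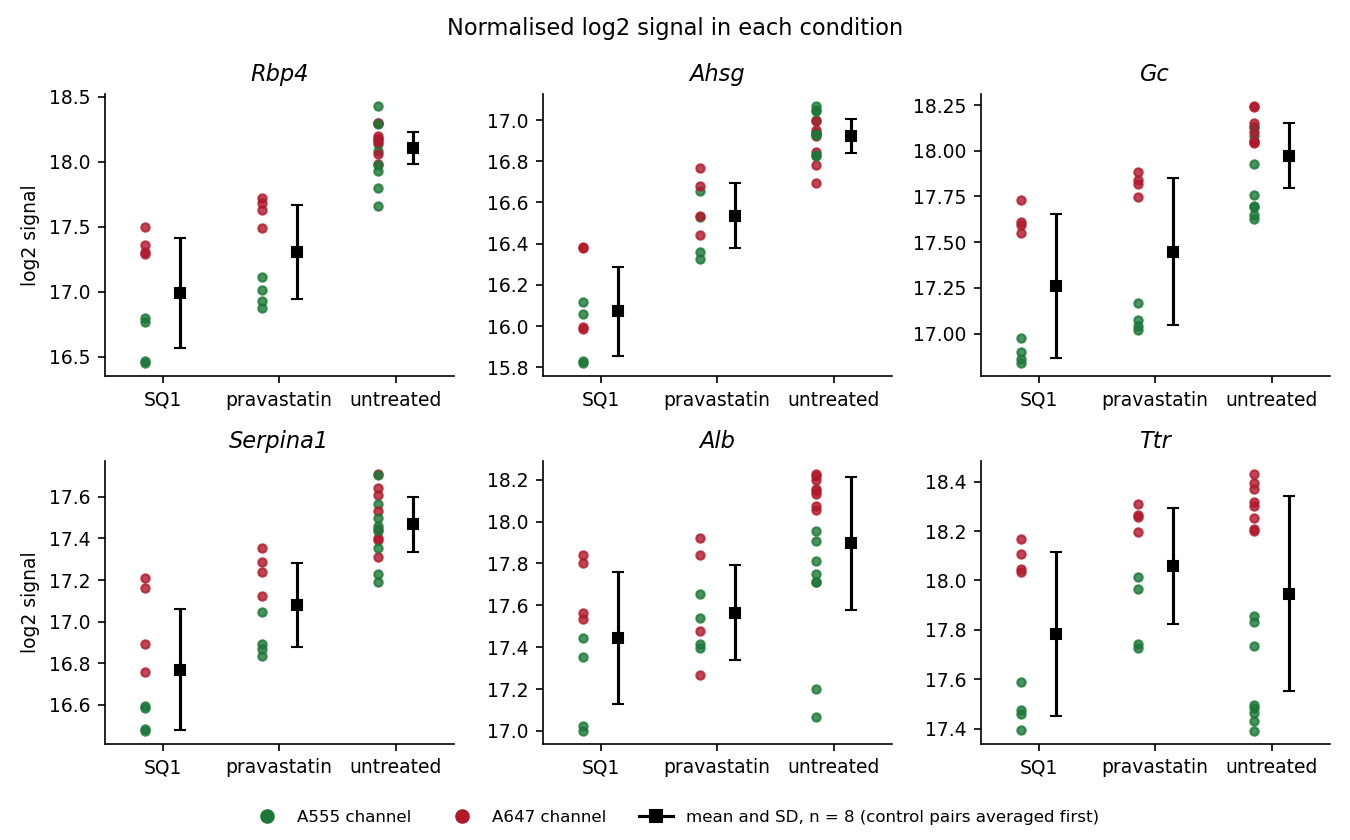
Normalised log2 signal of each gene in SQ1, pravastatin and untreated channels, coloured by dye, with single readings as points and the mean and SD of 8 values beside them; the vertical scale differs between panels and does not start at 0. The Rbp4 signals with SQ1 or pravastatin lie below the untreated averages, whose lowest is 17.90, and the Ttr signals of all 3 conditions overlap.

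The arrays fall into 2 sets by the control number in the scanner file names, 13 to 16 and 1 to 4, which were also scanned on separate days. No label explains the numbers, and each set holds 4 arrays of either drug. The mean SQ1 change was more negative with controls 13 to 16 than with controls 1 to 4 for all 6 transcripts after loess, and the difference was called for 5 of them. It averaged -0.78 with controls 13 to 16 and -0.32 with controls 1 to 4 for Alb, and -1.43 and -1.06 for Rbp4. For Gc it averaged -0.95 with controls 13 to 16 and -0.65 with controls 1 to 4, for Ahsg -1.03 and -0.77, and for Ttr -0.37 and -0.10. These 5 had adjusted p of 0.00677 or less by limma, while of all genes 16.1% had a called difference, 9.47% in this direction and 6.66% in the other. For Serpina1 the difference was -0.02 ± 0.07 (SE, adjusted p = 0.867 by limma), and its sign turned with median centring (0.20) and with arrays scaled to 1 spread (0.05). The pravastatin change differed in the same direction for Alb (-0.23 ± 0.05, SE, adjusted p = 0.0239 by limma) and Rbp4 (-0.24 ± 0.06, SE, adjusted p = 0.0456 by limma), and was not called for the other 4. Of all genes 4.79% had a called difference there, 3.01% in this direction and 1.78% in the other. Of these differences, the one of Alb under SQ1 was also called with median centring and with arrays scaled to 1 spread, and the other 6 were not. Within the controls 1 to 4, the SQ1 change of Ttr was not called (-0.10, adjusted p = 0.0951 by limma), and the other changes of the 6 transcripts, under either drug, were called in each set. With controls 1 to 4 alone the pravastatin change of Alb was -0.12 (adjusted p = 0.0448 by limma), and with controls 13 to 16 alone that of Ttr was 0.09 (adjusted p = 0.0476 by limma).

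**Figure D4:**
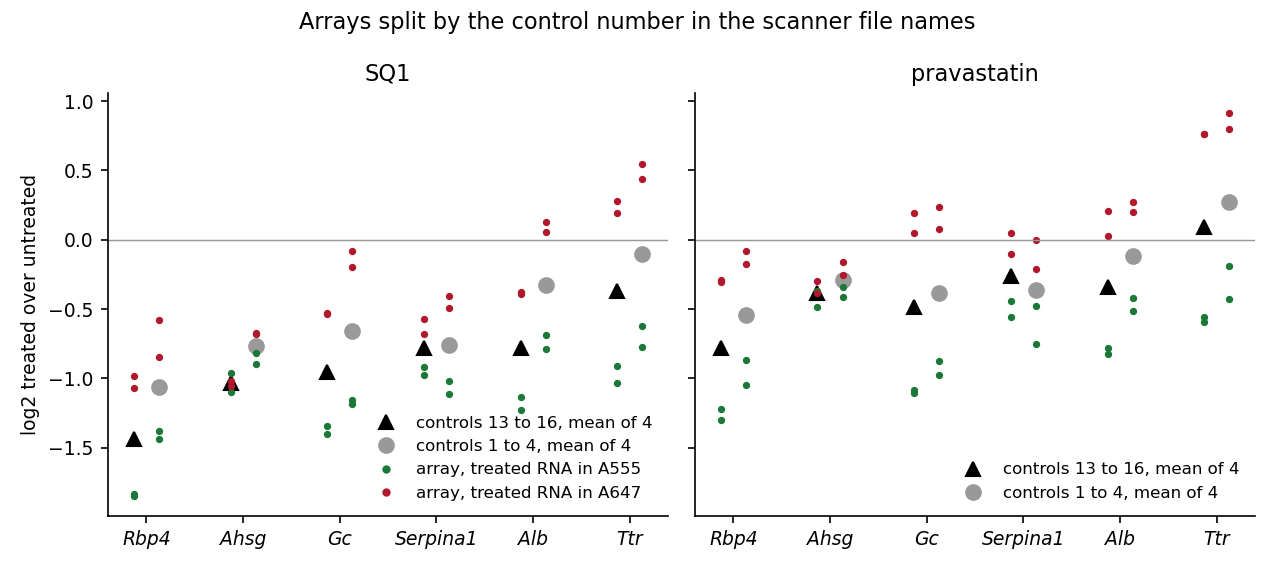
Log2 ratio of treated over untreated cells for each gene with SQ1 (left) and pravastatin (right), with arrays of controls 13 to 16 (triangles, mean of 4) beside those of controls 1 to 4 (circles, mean of 4) and single arrays as dots coloured by dye. For Alb under SQ1 the means are -0.78 with controls 13 to 16 and -0.32 with controls 1 to 4.

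Counts in the gene lists that follow are to be read against all genes tested, of which 31.2% were called lower and 32.8% higher under SQ1, and 20.7% lower and 20.7% higher under pravastatin. Among other plasma carriers of the liver, a list that also holds the cellular protein Rbp7, more were called lower than higher. Of 21 measured, 17 fell and 2 rose under SQ1, with a median change of -0.60, and 11 fell and 3 rose under pravastatin, with a median of -0.21; the median over all genes was 0.01 for SQ1 and 0.00 for pravastatin. Hrg, which encodes histidine-rich glycoprotein, fell under SQ1, with a change of -1.74 ± 0.06 (SE, adjusted p = 7.44e-14 by limma), and so did Selenop, the selenium carrier, with -1.48 ± 0.08 (SE, adjusted p = 1.99e-11 by limma). Those that rose under SQ1 were Igfals, a partner of the insulin-like growth factors, by 0.20 ± 0.03, and Serpina6, the cortisol-binding globulin, by 0.16 ± 0.03 (SE), whose probe was well above background in 23 of 32 channel measurements. Under pravastatin the largest falls of the list were those of Azgp1 (-1.16 ± 0.06) and Hrg (-0.81 ± 0.06), and the largest rises those of Afp and of Rbp7, a cellular retinol-binding protein (0.16 ± 0.04, SE).

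Among the protease inhibitors of plasma, to which Serpina1 belongs, 12 of 13 measured fell and 1 rose under SQ1 (median -0.56), and 9 fell and 1 rose under pravastatin (median -0.18). Serpind1, heparin cofactor II, fell under SQ1 (-2.81 ± 0.11) and under pravastatin (-0.96 ± 0.11, SE). Serpina3n, an acute-phase serpin, fell under SQ1 (-1.73 ± 0.06, SE), and its pravastatin value was -0.08 ± 0.06 (SE, adjusted p = 0.26 by limma). Serpina4, known in humans as kallistatin, fell under pravastatin (-0.55 ± 0.05, SE). A2m, which encodes alpha-2-macroglobulin, was the riser of the group, by 0.65 ± 0.11 under SQ1 and by 0.85 ± 0.11 under pravastatin (SE). The smallest called fall was that of Serpinf1 under both drugs, with -0.24 ± 0.03 for SQ1 and -0.09 ± 0.03 for pravastatin (SE).

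Among the genes that handle the ligands of Rbp4 and Ttr inside cells, more were called lower than higher. Of 14 measured, 8 fell and 1 rose under SQ1 (median -0.15), and 7 fell and none rose under pravastatin (median -0.12). Lrat, which esterifies retinol for storage, fell under SQ1 (-0.81 ± 0.06) and under pravastatin (-0.37 ± 0.06, SE). Dio1, the deiodinase that makes active thyroid hormone, fell under SQ1 (-0.80 ± 0.06, SE), and Cyp26a1, which breaks down retinoic acid, under pravastatin (-0.55 ± 0.07, SE). Aldh1a1, a retinaldehyde dehydrogenase, rose under SQ1 (0.53 ± 0.07) and fell under pravastatin (-0.19 ± 0.07, SE). Rbp2, another cellular retinol-binding protein, fell under SQ1 (-0.09 ± 0.02) and under pravastatin (-0.07 ± 0.02, SE). Lrat is also among the markers of stellate cells.

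Transcription factors of the plasma protein genes were divided, and the share of risers under pravastatin was close to that of all genes. Under SQ1, 10 of 14 measured fell and 3 rose (median -0.22), and under pravastatin 7 fell and 3 rose (median -0.07). Foxa1 fell under SQ1 (-1.44 ± 0.06, SE, adjusted p = 7.92e-13 by limma) and under pravastatin (-0.32 ± 0.06, SE, adjusted p = 0.00046 by limma), and Cebpd fell under SQ1 (-0.79 ± 0.05, SE). Dbp and Tef, clock-controlled factors, rose by 0.98 ± 0.04 and 0.37 ± 0.05 under SQ1 (SE), and Dbp by 0.18 ± 0.04 under pravastatin (SE). Foxa3 fell under pravastatin (-0.43 ± 0.05), where Foxa2 rose (0.24 ± 0.03, SE).

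In the secretory pathway and among receptors for plasma proteins, 16 of 19 measured fell and 2 rose under SQ1 (median -0.33), and 11 fell and none rose under pravastatin (median -0.14). Asgr2, a subunit of the receptor that clears asialoglycoproteins, fell under SQ1 (-0.72 ± 0.03), and so did P4hb, protein disulfide isomerase (-0.68 ± 0.04, SE). Canx, the chaperone calnexin, rose by 0.65 ± 0.11 under SQ1, and Fcgrt, the receptor that saves albumin from breakdown, by 0.15 ± 0.03 (SE). Under pravastatin P4hb (-0.35 ± 0.04), Asgr1 (-0.33 ± 0.03), Fcgrt (-0.14 ± 0.03) and Lman1, a cargo receptor of the early secretory pathway (-0.12 ± 0.04, SE), fell.

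**Figure D5:**
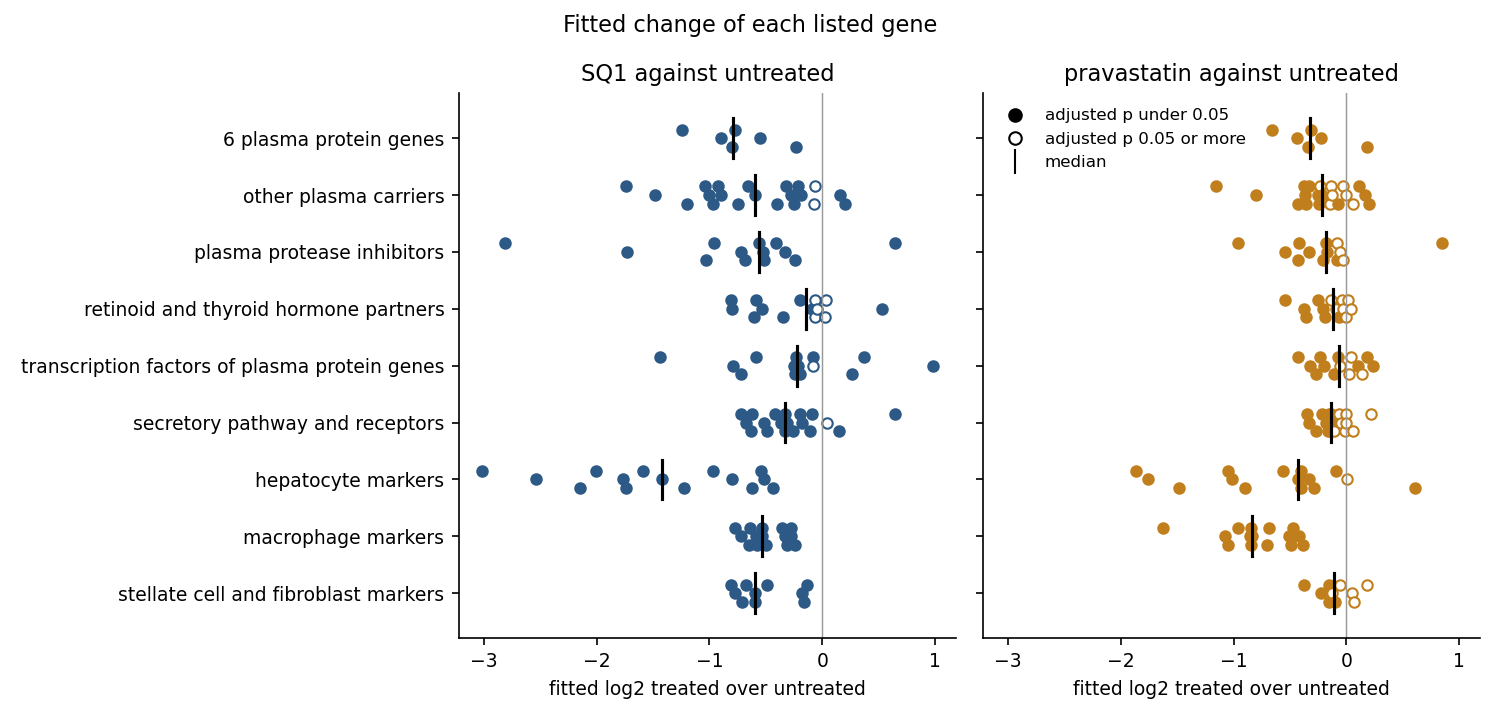
Fitted log2 change of each gene of the lists (points, filled where called at adjusted p under 0.05, open otherwise) with the list's median (bar), for SQ1 left and pravastatin right, both against untreated cells. The 6 plasma protein genes have a median of -0.79 under SQ1 and -0.32 under pravastatin, and macrophage markers have medians of -0.53 and -0.84.

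Markers of cell types moved beside these transcripts, and their counts too stand against 31.2% of all genes called lower under SQ1 and 20.7% under pravastatin. All 15 other hepatocyte markers fell under SQ1 (median -1.42), from G6pc1 (-3.02 ± 0.06) and Slc10a1 (-2.53 ± 0.12) to Apob (-0.51 ± 0.07) and Tat (-0.44 ± 0.06, SE). Under pravastatin 13 fell and Apoa1 rose by 0.61 ± 0.07 (SE), with a median of -0.43. The largest falls there were those of Cyp7a1 (-1.87 ± 0.07) and Cyp2e1 (-1.76 ± 0.10, SE). All 15 macrophage markers fell under SQ1, with a list mean of -0.69 to -0.33 over its 8 arrays, and under pravastatin, with -0.93 to -0.69. The changes of Aif1 were -0.77 ± 0.06 under SQ1 and -1.07 ± 0.06 under pravastatin, those of Cd14 -0.72 ± 0.07 under SQ1 and -0.39 ± 0.07 under pravastatin, and those of Clec4f, a Kupffer cell lectin, -0.24 ± 0.05 under SQ1 and -1.63 ± 0.05 under pravastatin (SE). Csf1r had -0.27 ± 0.04 under SQ1, and Laptm5 -0.42 ± 0.04 under pravastatin (SE). Markers of stellate cells and fibroblasts fell in 10 of 10 under SQ1 and in 5 of 10 under pravastatin, with list means of -0.70 to -0.32 on the SQ1 arrays and of -0.15 to -0.04 on the pravastatin arrays. Of these, Col3a1 had -0.77 ± 0.05 under SQ1 and -0.22 ± 0.05 under pravastatin (SE). Reln (-0.16 ± 0.04) and Dcn (-0.14 ± 0.05) fell the least under SQ1, and Pdgfrb (-0.15 ± 0.05) and Des (-0.10 ± 0.04, SE) the least among those called under pravastatin. Of 4 endothelial markers, 3 fell under SQ1 (Lyve1, Kdr and Pecam1, from -0.80 to -0.13) and 1 under pravastatin (Pecam1, -0.10 ± 0.04, SE). Of 6 cholangiocyte markers, 3 fell under SQ1 (among them Spp1 with -0.34 and Krt7 with -0.15) and Epcam rose by 0.57 ± 0.03 (SE), while under pravastatin Spp1 fell (-0.34 ± 0.10, SE) and 3 rose, among them Epcam by 0.36 and Cftr by 0.13. Cftr was well above background in 14 of 32 channel measurements. The part of a shift among cell types in the changes of the 6 transcripts was not tested, and in RNA of whole cultures fewer cells of a type and less RNA per cell cannot be told apart.

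The genes whose 16 log2 ratios were most like those of each transcript were sought among 11918 genes with a symbol and a value on every array. These arrays share controls, drugs and dye orientations, so the correlations are descriptions. The nearest were Hmgcs1 and Tf to Alb (Pearson 0.987 and 0.98), Apoc3 and Tf to Ttr (0.993 and 0.991), and Ttr and Apoc3 to Gc (both 0.985). Those nearest to Rbp4 were Ceacam9 and Apoh (0.986 and 0.979), those to Serpina1 Impa1 and Scd (0.972 and 0.967), and those to Ahsg Mlc1 and Slc43a3 (both 0.984). Hmgcs1, an early enzyme of the sterol pathway, had fitted changes of 2.90 under SQ1 and 3.29 under pravastatin, so likeness over arrays did not mean a change in the same direction. With the dye term of each gene removed, the nearest were other genes in each case. They were then Aldh9a1 and Rapgef6 for Alb (0.969 and 0.966), Txnip and Rb1cc1 for Ttr (0.989 and 0.98), Cp and Cyp2c13 for Gc (0.971 and 0.961), Bhmt2 and Serpina5 for Rbp4 (0.991 and 0.989), Ppp1r10 and Sdc2 for Serpina1 (both 0.977), and Kng2l1 and Tspan12 for Ahsg (0.992 and 0.99). The least alike before that step were Cnih4 to Alb (-0.956), Usp10 to Ttr and Gc (-0.952 and -0.96), Cyb5r4 to Serpina1 (-0.961), Atic to Rbp4 (-0.943) and Dhodh to Ahsg (-0.983).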

How the data were processed

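RNA of treated and untreated rat hepatocytes was compared on 16 Agilent arrays of 2 colours. The authors measured spots with Agilent Feature Extraction 10.7.1.1, per the file headers, and the deposited scanner files give the median signal and local background of each spot as intensity in arbitrary units. The value table as deposited holds log2 ratios of treated over untreated, and each of its columns matched a scanner file of the other drug. Which side is right is not known, and the table was used only as an alternative, with its columns set by that match. The files state the older genome build rn4, so no coordinates other than those of the RefSeq promoter sequences are given.

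The software was limma 3.58.1 and statmod 1.5.0, with the R package data.table (1.17.8) and jsonlite 2.0.0, under R 4.3.3. Background was removed by normexp with an offset of 50. On pravastatin array 1, 6 spots had a local background over 3 times that array's median and distorted the normexp fit, which then left a median log ratio of 0.00998 in size; they were left out, which gave 0.0778, against 0.0774 to 0.0969 on the other pravastatin arrays. No spot of the 6 transcripts was among them. This step was chosen after seeing the data. Loess was fitted within each array without the control spots, and repeat spots were averaged. A probe was kept if 6 or more of its 32 channel measurements were well above background, and the probe of highest mean signal stood for a gene. RefSeq accessions named 17998 of 30367 probes, and others count as genes of their own.

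The limma model held both drugs and the dye, over all 16 arrays, with two-sided p-values adjusted over 20395 genes by Benjamini-Hochberg, and was tested on simulated data. Levels are log2 signals of each channel after loess and quantile normalisation of the array means. Same-numbered arrays share a control number in their file names, and their residuals correlated at 0.152 to 0.652. That range alone does not show that the numbers pair the arrays. The 6 genes and all lists were chosen with earlier results of these data known. Named beside them are, of each list, the called genes with the 2 highest and 2 lowest changes per drug, and for each transcript the 2 genes most like it and the 1 least like it. Some genes that this rule also names are not reported here. The number of arrays limits the precision. Alternatives were Agilent's processed signals (intensity, background-subtracted and dye-normalised before being deposited), other normalisations and filters, blocks by replicate, slide and control set, and each array left out.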

Additional observations from a re-analysis of the deposited data

Results flagged for a closer look

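The SQ1 effect on 5 of the 6 transcripts differed between the arrays with controls 13 to 16 and those with controls 1 to 4 by the interaction test of the limma fit. The difference, controls 13 to 16 minus controls 1 to 4 on the log2 scale, was -0.46 for Alb, -0.37 for Rbp4, -0.30 for Gc, -0.27 for Ttr and -0.26 for Ahsg, with adjusted p of 3.94e-05, 0.00105, 0.00615, 0.00677 and 0.00251. The pravastatin effect differed by -0.23 for Alb and by -0.24 for Rbp4, with adjusted p of 0.0239 and 0.0456. Of all genes tested, 16.1% had a called difference under SQ1 (9.47% in this direction) and 4.79% under pravastatin (3.01% in this direction). With median centring and with arrays scaled to 1 spread, only the Alb difference under SQ1 was still called. The control numbers coincide with the days of scanning and with slides, so these cannot be told apart. No single array stood apart from its group by Dixon's test in any of the 36 sets of values tested. The sets were the 8 arrays of a drug and the 4 arrays of each orientation for every transcript. The test had little power to find such an array. Sets of 8 mixed dye orientations, which lay apart for most transcripts, and sets of 4 needed a ratio of 0.829.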

How the results depend on the processing

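The changes of the 6 transcripts were recomputed under every alternative. Of 576 such values 567 kept their direction and their side of the threshold, among them all 192 of pravastatin against untreated, while 8 were no longer called and 1 turned. With median centring the SQ1 change of Ttr was 0.00855, SQ1 minus pravastatin was -0.13 for Alb, 392 genes differed between control sets under pravastatin (976 with loess), and the set difference was 0.20 for Serpina1 under SQ1, 0.0596 for Gc and 0.0603 for Ahsg under pravastatin. With arrays scaled to 1 spread, SQ1 minus pravastatin was -0.22 for Alb and -0.20 for Gc, the set difference of Serpina1 under SQ1 was 0.0480, and 724 genes differed between sets under SQ1 (3289 unscaled). With controls 1 to 4 alone the SQ1 change of Ttr was -0.10, and calls numbered 5134 for pravastatin (8439 over all arrays) and 5045 for SQ1 minus pravastatin (7820 over all arrays). Without normalisation, an alternative chosen after seeing the data, the SQ1 change of Ttr was -0.0447, calls numbered 3096 for pravastatin and 3019 for SQ1 minus pravastatin, and that contrast was -0.16 for Alb, -0.26 for Ttr and -0.22 for Gc. The cause of these shifts was not tested.

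Other values moved by over 1.5 times without losing their call. SQ1 minus pravastatin with median centring was -0.23 for Ttr, -0.29 for Serpina1 and -0.19 for Gc, and with scaled arrays -0.30 for Serpina1 and -0.32 for Rbp4. The SQ1 change of Alb was -0.36 without normalisation, and SQ1 minus pravastatin for Alb was -0.21 with controls 1 to 4. The share of called genes that were higher was 41.3% for the set difference under SQ1, against 82.5% with median centring and 52.3% with Agilent's processed signals, and 37.2% for that under pravastatin, against 66.6% with median centring. Under pravastatin it was 49.9%, against 35.6% without normalisation. Set differences under pravastatin were also no longer called for Alb with processed signals (adjusted p = 0.0587) and for Rbp4 without the filter (adjusted p = 0.0527).

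With the replicate block, random at a correlation of 0.434, calls numbered 12894 for SQ1, 8344 for pravastatin and 10069 for SQ1 minus pravastatin, and as a fixed term 14311, 10493 and 10038; it changed no call of the 6 transcripts. Leaving out each array in turn changed none of their calls, with adjusted p of 0.0343 or less. Calls then ran from 12374 to 13093 for SQ1, 7476 to 8580 for pravastatin and 7192 to 7942 for SQ1 minus pravastatin. With the bright-background spots kept, an alternative chosen after seeing the data, they numbered 13038, 7973 and 7757.

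With Agilent's processed signals the mean levels, given for SQ1, pravastatin and untreated cells in this order, were 17.07, 17.25 and 17.57 for Alb, 17.27, 17.53 and 17.43 for Ttr, 16.20, 16.52 and 16.91 for Serpina1, 16.35, 16.66 and 17.47 for Rbp4, 16.59, 16.76 and 17.30 for Gc, and 15.46, 15.93 and 16.32 for Ahsg. The order of the 3 conditions was the same as in the main levels for 6 of 6 genes. Signal over background did not limit these 6 spots, which were well above background throughout and reached 89.2% of the scanner's limit.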
